A study of Mus musculus with 12 samples.

Results

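Apln, Angpt1, Cldn5, Kdr, Vcam1 and Sele are genes of the vessel wall, and their transcripts were followed in the left ventricle of mice infused with AngII/PE. The 6 genes were chosen by symbol from the authors' deposited table, and 6 of the 6 symbols were found among its 3939 genes. Wild-type C57Bl6J/129X1 hybrid mice, with no other allele given in the labels, received NaCl as control or AngII/PE for 3 days, and RNA of whole left ventricular myocardium was sequenced. The 12 libraries comprise 3 from females and 3 from males for each of the 2 treatments, so 6 per treatment; the ages, and whether each library came from a separate mouse, are not given in the labels. The labels do not spell out AngII/PE, an abbreviation commonly used for angiotensin II, a vasoconstrictor peptide, combined with the adrenergic agonist phenylephrine. The authors' deposited table compares treated with control myocardium and gives 1 log2 fold change and 1 adjusted p per gene. Values per library were not analysed here, so no level, replicate spread, standard error, depth or separate value for females and males stands beside a fold change, and differences in size between genes cannot be set against an error.

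Endothelial cells line every vessel and, in heart muscle, form the dense capillary bed that feeds the cardiomyocytes. Vascular endothelial growth factor acts on them through the receptor encoded by Kdr, angiopoietin-1 acts through the Tie receptors, and claudin-5 helps to seal the contacts between cells. When cytokines activate endothelium it displays adhesion molecules such as E-selectin and VCAM-1, on which white blood cells roll and then hold fast. Apelin is a secreted peptide made by endothelial and other cells that acts on a G protein-coupled receptor. Angpt1 is known to be made mainly by cells around the vessel rather than by endothelium, and Vcam1 can also be expressed by fibroblasts and other stromal cells, so neither transcript belongs to endothelium alone.

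RefSeq promoter sequences (GRCm38.p6) matched 4 of the 6 genes, Apln, Cldn5, Kdr and Sele, and Angpt1 and Vcam1 are named only. The 250 bases before each annotated start are shown 5′ to 3′, to set the promoter of Sele, which rose, beside those of 3 genes that fell. Capitals mark matches to the motifs described next.
Sele, chr1:164047984-164048233, plus strand: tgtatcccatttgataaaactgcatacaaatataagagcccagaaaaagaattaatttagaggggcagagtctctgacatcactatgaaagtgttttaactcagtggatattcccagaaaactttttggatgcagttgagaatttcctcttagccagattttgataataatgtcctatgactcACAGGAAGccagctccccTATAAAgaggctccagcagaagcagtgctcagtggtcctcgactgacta
Kdr, chr5:75978456-75978705, minus strand: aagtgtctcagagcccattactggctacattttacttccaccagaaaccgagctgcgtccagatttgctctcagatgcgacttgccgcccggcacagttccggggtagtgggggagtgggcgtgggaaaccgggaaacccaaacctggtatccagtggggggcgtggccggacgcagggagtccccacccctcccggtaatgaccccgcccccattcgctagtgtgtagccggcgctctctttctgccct
Cldn5, chr16:18776597-18776846, plus strand: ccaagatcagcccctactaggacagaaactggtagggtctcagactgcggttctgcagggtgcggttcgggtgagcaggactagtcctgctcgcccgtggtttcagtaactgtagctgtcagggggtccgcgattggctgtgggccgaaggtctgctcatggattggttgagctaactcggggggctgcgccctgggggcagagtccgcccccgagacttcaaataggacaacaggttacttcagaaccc
Apln, chrX:48034854-48035103, minus strand: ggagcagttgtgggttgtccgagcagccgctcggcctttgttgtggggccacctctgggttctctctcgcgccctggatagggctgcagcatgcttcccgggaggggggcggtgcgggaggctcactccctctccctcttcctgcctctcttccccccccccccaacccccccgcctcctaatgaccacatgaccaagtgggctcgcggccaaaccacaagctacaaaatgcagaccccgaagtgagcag

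Motifs were sought on both strands of these windows, and a match describes letters and not a bound site. The Sele window held an ETS motif (searched as ACAGGAAG or ACCGGAAG) from 67 to 60 bases before the start and a TATA box (TATAAA) from 49 to 44 bases before it. An ETS motif was found in 4.57% and TATAAA in 12.4% of the 32851 promoter windows in the RefSeq table. The TATA motif was added after the sequences were seen. The windows of Kdr, Cldn5 and Apln held none of the motifs searched, which also included an NF-kB motif (GGGNNTTCC, in 4.98% of windows), a GATA motif (AGATAA, in 9.99%) and a hypoxia response core (ACGTG, in 16.6%), and of these 3 the Sele window held none either. Only these exact letters were sought and not other spellings of such sites, so a window without a match may still hold a site. No motif searched overlapped another in these windows. G and C made up 40.4% of the Sele window, against 65.2% for Apln, 61.6% for Kdr and 59.6% for Cldn5. The median over all windows was 52.4%, and 13.3% of windows had a share as low as that of Sele or lower.

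Of the 6 genes, 4 were lower and 2 higher after AngII/PE. The genes for the ligands apelin and angiopoietin-1, for the VEGF receptor and for claudin-5 were between 1.76-fold and 2.03-fold lower, while the genes for the adhesion molecules VCAM-1 and E-selectin were 2.42-fold and 2.03-fold higher in the authors' deposited table. Of all listed genes, 43.8% were lower and 56.2% higher in the authors' deposited table. That table holds called genes alone (highest adjusted p 0.0497), so the call of each of the 6 follows from how they were chosen and is not a result about them. Their sizes lay within a narrow band, with log2 sizes from 0.82 to 1.28 in the authors' deposited table.

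**Figure D1:**
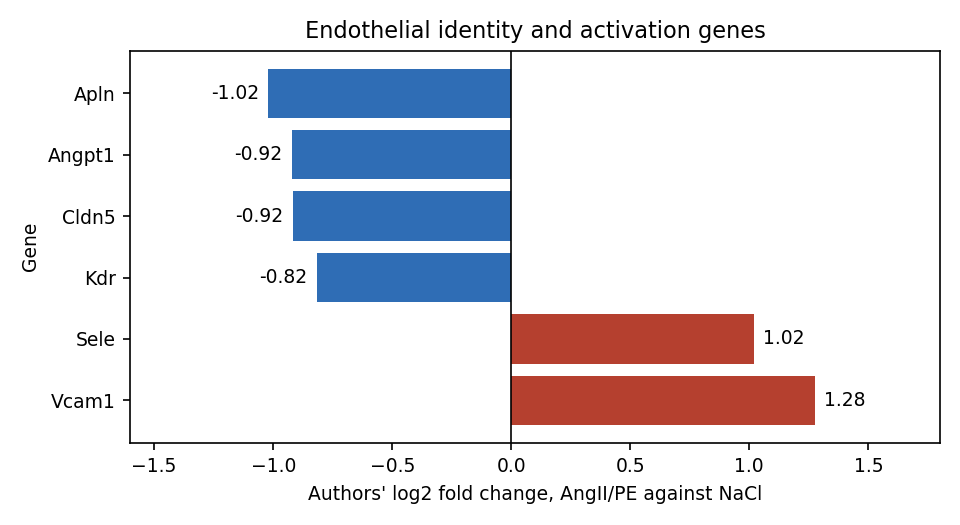
Authors' log2 fold change of AngII/PE treated against NaCl control myocardium (x axis) for each of the 6 genes (y axis), with no error available. Blue bars, from Apln at -1.02 to Kdr at -0.82, are lower in treated myocardium, and red bars, Sele at 1.02 and Vcam1 at 1.28, are higher.

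Among the ligands, Apln, encoding apelin, had a log2 fold change of -1.02 (adjusted p = 1.42e-16, or 50.7% lower) in the authors' deposited table. This was the largest fall of the 6, and 15.2% of all listed falls were at least as large. Apln lies on chromosome X from 48025146 to 48034853, on the minus strand. Its receptor gene Aplnr was also lower, at -0.40 (adjusted p = 1.4e-06) in the authors' deposited table, and Apela, encoding the other ligand of that receptor, had no value analysed here. Ligand and receptor genes of the apelin system thus both stood on the lower side, the receptor by the smaller amount. The inner edge of the listed rises was 0.63, as described below. A rise as small as the fall of Aplnr would thus mostly not have been listed.

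Angpt1, encoding the Tie receptor agonist angiopoietin-1, was at -0.92 (47.2% lower, adjusted p = 5.22e-21) in the authors' deposited table. Angpt1 spans chromosome 15 from 42424723 to 42676977, on the minus strand, and at 252255 bases is the longest of the 6 genes. The receptor gene Tek, encoding Tie2, was at -0.51 (adjusted p = 1.5e-28) in the authors' deposited table. Tie1, encoding the related receptor that modulates Tie2, was at -0.58 (adjusted p = 1.3e-52) in the authors' deposited table. The ligand gene and both receptor genes were therefore lower. Svep1, encoding a large matrix protein with a known role in lymphatic vessel growth, went the other way at 1.85 (adjusted p = 5.3e-74) in the authors' deposited table. Tek and Tie1 were smaller in size than 0.63, where rises mostly were not listed. At a size of at least 0.63 this list kept 1 higher gene, Svep1, and 1 lower gene, Angpt1. Angpt2 and Angpt4, the other angiopoietin genes, and Ptprb, encoding the endothelial phosphatase that acts on Tie2, had no value analysed here. Angiopoietin-like genes, which are named for sequence likeness and do not act on Tie2 as angiopoietins do, were split, with Angptl4 at 1.38, Angptl7 at 0.78, Angptl2 at 0.60 and Angptl6 at -0.73 in the authors' deposited table.

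Kdr, encoding VEGF receptor 2, the main signalling receptor for VEGF-A on endothelium, was at -0.82 (43.3% lower, adjusted p = 1.99e-70) in the authors' deposited table. This was the smallest size of the 6 and the smallest adjusted p, number 315 of the 3939 genes when ranked from the smallest adjusted p. Kdr lies on chromosome 5 from 75932827 to 75978458, on the minus strand. Of the 10 VEGF ligand and receptor genes, 3 had a value. Vegfb, a ligand of VEGF receptor 1 that is abundant in heart muscle, was at -0.59 (adjusted p = 1.9e-65), and Vegfd, a ligand also known for lymphatic growth, was at 1.08 (adjusted p = 2.6e-04) in the authors' deposited table. The other 7, Vegfa, Vegfc, Pgf, Flt1, Flt4, Nrp1 and Nrp2, had no value analysed here, which does not show that they were unchanged.

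Cldn5, encoding claudin-5, the principal claudin of endothelial tight junctions, was at -0.92 (47.0% lower, adjusted p = 9.90e-12) in the authors' deposited table. Cldn5 lies on chromosome 16 from 18776847 to 18778262, on the plus strand, and at 1416 bases is the shortest of the 6. Of the 12 endothelial junction genes, 3 were listed, all lower, beside 43.8% lower among all listed genes. Cdh5, encoding VE-cadherin of the adherens junction, was at -0.53 (adjusted p = 1.1e-25) and Jam3, encoding a junctional adhesion molecule, at -0.43 (adjusted p = 0.0011) in the authors' deposited table. The fall of Cldn5 was the largest of the 3. Cdh5 and Jam3 were smaller in size than 0.63, where rises mostly were not listed, and Cldn5 alone was left at that size. The only other listed claudin, Cldn15, a claudin best known from gut epithelium, was higher at 1.19 (adjusted p = 1.16e-07) in the authors' deposited table.

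Vcam1, encoding the adhesion molecule that binds the leukocyte integrin chain made from Itga4, was at 1.28 (2.42-fold higher, adjusted p = 1.72e-24) in the authors' deposited table. Its size was the largest of the 6, and 36.5% of all listed rises were at least as large. Vcam1 lies on chromosome 3 from 116109949 to 116129688, on the minus strand. Sele, encoding E-selectin, on which leukocytes roll, was at 1.02 (2.03-fold higher, adjusted p = 0.0070) in the authors' deposited table. Its adjusted p was the largest of the 6, number 3696 of the 3939 genes, and 53.3% of listed rises were at least as large. Sele lies on chromosome 1 from 164048234 to 164057677, on the plus strand. Both rises were thus of ordinary size for this table, whose median listed rise was 1.06 on the log2 scale.

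**Figure D2:**
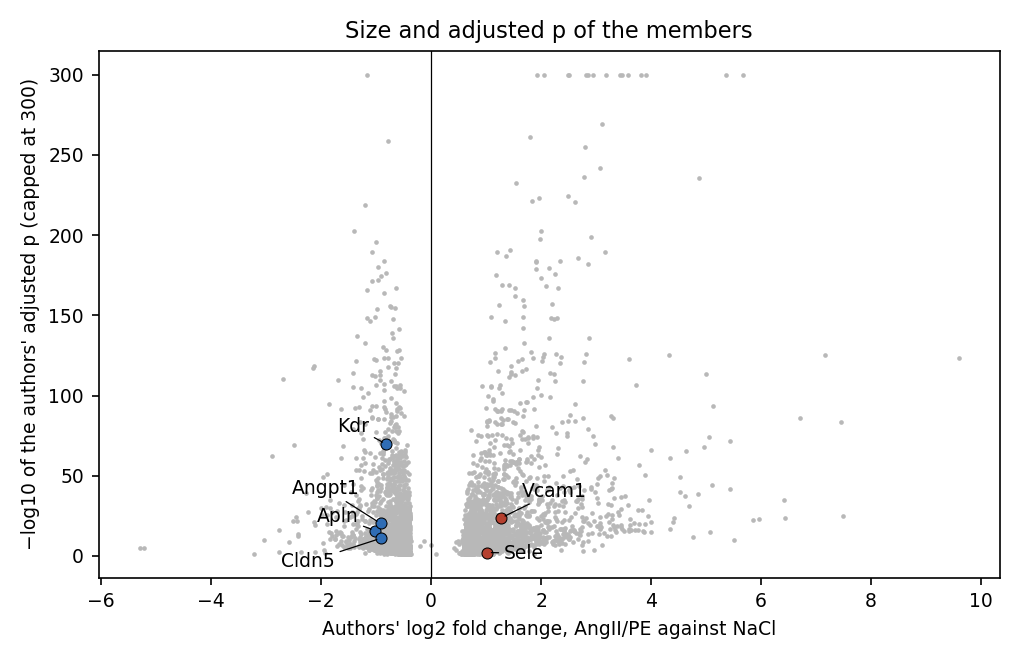
Authors' log2 fold change (x axis) against −log10 of the authors' adjusted p (y axis, where the genes listed at exactly 0 are drawn at 300) for all 3939 listed genes in grey, with the 6 genes in blue (lower) and red (higher). Kdr stands highest of the 6 with the smallest change, and Sele lies near the bottom with an adjusted p of 0.0070.

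Of the 10 endothelial adhesion molecule genes, 4 were listed, 3 higher and 1 lower, beside 56.2% higher among all listed genes. Besides Vcam1 and Sele, Alcam, an adhesion molecule found on several cell types, was at 0.88 (adjusted p = 9.0e-05) in the authors' deposited table. Icam2, which resting endothelium displays, was at -0.47 (adjusted p = 5.4e-10) in the authors' deposited table. Icam1 and Selp, encoding the other classic adhesion molecules of activated endothelium, and Pecam1, Cd34, Mcam and Madcam1 had no value analysed here. On the leukocyte side, 7 of 11 genes for partners of these molecules were listed, all higher, beside 56.2% higher among all listed genes. Their median log2 fold change was 1.29, beside 1.06 for all listed rises. Itga4, encoding the alpha chain of the VCAM-1 receptor, was at 0.63 (adjusted p = 2.6e-04) and its beta chain gene Itgb1, which most cells express, at 1.20 (adjusted p = 1.2e-76) in the authors' deposited table. Selplg, a selectin ligand gene, was at 1.29, and Cd44, whose product can bind E-selectin, at 1.70 in the authors' deposited table. The integrin genes Itgam and Itgb2 of myeloid cells were at 1.85 and 1.55, and Itga9, which encodes another VCAM-1 binding chain, at 0.63 in the authors' deposited table.

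Macrophage markers stood on the same side as Vcam1 and Sele: 12 of 12 were listed and higher, beside 56.2% higher among all listed genes. Their median was 1.56, from Csf1r at 0.79 to Lgals3 at 3.40 in the authors' deposited table. Fibroblast markers were higher in 7 of 8 listed genes of 12, with a median of 3.04, while Gsn, the gelsolin gene, had a value of -1.65 in the authors' deposited table. Their part in the higher Vcam1 was not tested. Genes of cytokine input and NF-kB feedback, the inflammatory route known to switch on Vcam1 and Sele, were higher in 6 of 8 listed genes of 20 (median 0.85). Nfkbiz was at 1.46, the TNF receptor genes Tnfrsf1b and Tnfrsf1a at 1.06 and 0.78, and Nfkbie at 1.02 in the authors' deposited table. Nfkbia, the inhibitor gene that NF-kB itself induces, was at -0.52 and Tnfaip2, named for its induction by TNF, at -0.76 in the authors' deposited table. The cytokine genes Tnf, Il1a, Il1b and Il6 had no value analysed here.

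Genes used as general (pan-endothelial) markers of endothelium stood on the same side as Cldn5 and Kdr where they had a value. Of 30 such genes 10 were listed, and 10 of 10 were lower, with a median log2 fold change of -0.52; without Cldn5 and Kdr it was 8 of 8, with a median of -0.49. These shares compare with 43.8% lower among all listed genes, whose median listed fall was -0.63, larger in size than the median of the list. The endothelial transcription factor gene Erg was at -0.54 (adjusted p = 2.0e-15), and the smallest change was that of Sox7 at -0.40 (adjusted p = 1.3e-05) in the authors' deposited table. Cldn5 at -0.92 and Kdr at -0.82 had the largest falls of the 10 in the authors' deposited table. The other 20 genes, among them Pecam1, Flt1, Eng, Vwf and Nos3, had no value analysed here, so the pattern covers a minority of the list. In bulk tissue, fewer endothelial cells and less of these transcripts per cell cannot be told apart.

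How the table is cut bears on this count. The inner edge of the listed falls (their 95th percentile) was -0.41 and that of the listed rises (their 5th percentile) 0.63, so a modest fall could be listed where a rise of the same size mostly was not. Between these sizes the table holds 781 falls and 110 rises, where the count of rises is set by the percentile that defines their edge. Of the 10 listed pan-endothelial genes, 8 had sizes under 0.63, and Cldn5 and Kdr alone were left, both lower, when genes under that size were dropped from both sides; at a size of at least 1, 0 of the 10 were left. The 6 genes themselves were all larger than this edge.

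**Figure D3:**
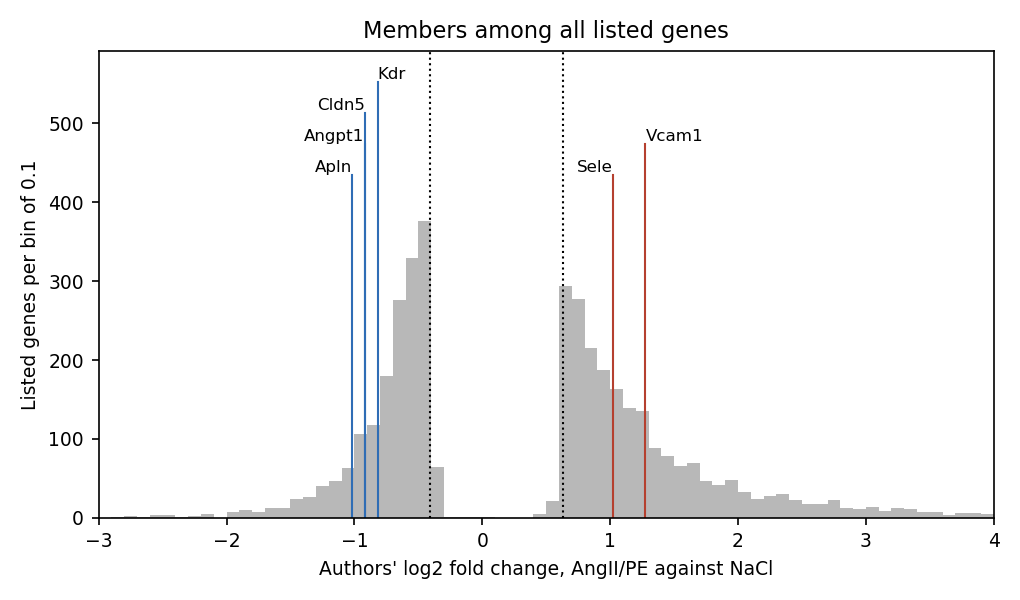
Number of listed genes per bin of 0.1 (y axis) by authors' log2 fold change (x axis, cut at -3 and 4, beyond which 4 and 34 genes lie), with the 6 genes as coloured lines. Dotted lines mark the inner edges at -0.41 for falls and 0.63 for rises, and the 6 genes lie outside both.

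Of the genes of capillary transport, 13 of 16 were listed and 13 of 13 were lower, beside 43.8% lower among all listed genes. Their median was -0.71, beside -0.52 for the pan-endothelial genes and -0.63 for all listed falls. The difference between these lists was not tested. Of the 13 genes, 4 were smaller in size than 0.63, where rises mostly were not listed. At a size of at least 0.63 the list kept 9 lower genes, and at a size of at least 1 it kept 5. Car4, encoding a carbonic anhydrase anchored on capillary surfaces, was at -1.90 and Aqp7, encoding a glycerol channel, at -1.41 in the authors' deposited table. Timp4, a metalloproteinase inhibitor gene also active in heart muscle, was at -1.33 and Rgcc, a cell cycle regulator gene enriched in capillaries, at -1.21 in the authors' deposited table. Aqp1, encoding the capillary water channel, was also at -1.21 in the authors' deposited table. Among the other members, Cd36, the fatty acid transporter gene, was at -0.71, Gpihbp1, which anchors lipoprotein lipase on capillaries, at -0.60, and Fabp4, a fatty acid binding protein gene, at -0.47 in the authors' deposited table. Cd36 and Lpl are expressed in cardiomyocytes too. Of 12 cardiomyocyte markers 6 were listed and 6 of 6 were lower as well, beside 43.8% of all listed genes. Their median was -0.94, from Myl2 at -1.17 to Myh6 at -0.65 in the authors' deposited table. The part of cardiomyocytes in the falls of the capillary list was not tested.

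Genes of arteries, veins, lymphatics and sprouting were mixed. Of 16 arterial genes 7 were listed, 5 lower and 2 higher, beside 43.8% lower among all listed genes. The Notch ligand gene Dll4 was at -0.77 and the kinase gene Bmx at -0.74 in the authors' deposited table. Fbln5, an elastic fibre gene, was at 0.93 and the netrin receptor gene Unc5b at 0.73 in the authors' deposited table. At a size of at least 0.63, under which rises mostly were not listed, the arterial list kept 2 higher and 2 lower genes. Of 14 venous and lymphatic genes 4 were listed, 3 lower and 1 higher, and at a size of at least 0.63 the list kept 1 of each. Prox1, a lymphatic regulator that cardiomyocytes also express, was at -0.73 in the authors' deposited table. Pdpn, a lymphatic gene also found in fibroblasts, was at 1.30 in the authors' deposited table. Of 18 tip cell and sprouting genes, to which Apln belongs, 9 were listed, 5 higher and 4 lower, beside 56.2% higher among all listed genes. Apln at -1.02 had the largest fall of these, while the basement membrane collagen genes Col4a1 and Col4a2 were at 1.29 and 1.05 and Plvap, encoding a protein of endothelial fenestrae, at 1.23 in the authors' deposited table. Besides Apln and Dll4, the lower genes were Trp53i11, at -0.66 (adjusted p = 2.2e-14), and Igfbp3, an IGF binding protein gene, at -0.52 (adjusted p = 1.2e-08) in the authors' deposited table. Esm1 and Angpt2, further genes of sprouting endothelium, had no value analysed here. Endocardial genes were split 2 and 2 among 4 listed of 8, with Cytl1 at -1.86, Npr3 at -0.83, Plvap at 1.23 and Cdh11 at 0.90 in the authors' deposited table.

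Vasoactive and clotting genes of endothelium were 3 higher and 3 lower among 6 listed of 16, beside 56.2% higher among all listed genes. The prostacyclin synthase gene Ptgis was at 1.85, Ace at 1.25 and Edn1, encoding the vasoconstrictor endothelin-1, at 0.71 in the authors' deposited table. Klf2, the transcription factor gene induced by laminar flow that is known to restrain adhesion molecule expression, was at -0.68 (adjusted p = 6.6e-04) in the authors' deposited table. Tfpi, encoding tissue factor pathway inhibitor, was at -0.62, and F3, encoding tissue factor itself, at -0.52 in the authors' deposited table. Tfpi and F3 were smaller in size than 0.63, where rises mostly were not listed. At a size of at least 0.63 the vasoactive and clotting list kept 3 higher genes and 1 lower gene. Genes used to follow a shift of endothelium towards mesenchyme were higher in 9 of 9 listed genes of 16, beside 56.2% of all listed genes. Their median was 1.54, beside 1.06 for all listed rises. Fn1 at 3.91 and Tgfb3 at 1.94 led the list, which included Snai1 at 1.44, in the authors' deposited table. Most genes of this list are also fibroblast genes, and the fibroblast markers rose as given above. The part of fibroblasts was not tested.

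Mural cells are the pericytes and smooth muscle cells that wrap vessels, and are a known source of angiopoietin-1. Of their 16 markers 10 were listed, 6 lower and 4 higher, beside 43.8% lower among all listed genes. Abcc9, encoding a potassium channel subunit, was at -1.17, Vtn, encoding vitronectin, at -1.24 and the pericyte gene Rgs5 at -0.52 in the authors' deposited table. Cnn1, Des, Cspg4 and Acta2 went the other way, at 3.57, 1.79, 1.33 and 1.14 in the authors' deposited table. Cspg4 and Des are pericyte markers as well, Des is also a muscle gene, and Acta2 and Cnn1 mark myofibroblasts too. Abcc9 is not a gene of pericytes alone. Cardiomyocyte markers were lower as given above, and their part in the fall of Abcc9 was not tested. The lower majority ended when genes under a size of 0.63 were dropped (4 higher and 4 lower) and turned at a size of at least 1 (4 higher and 2 lower). Markers of the cells known to make angiopoietin-1 thus went both ways beside the lower Angpt1, and their part in it was not tested.

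**Figure D4:**
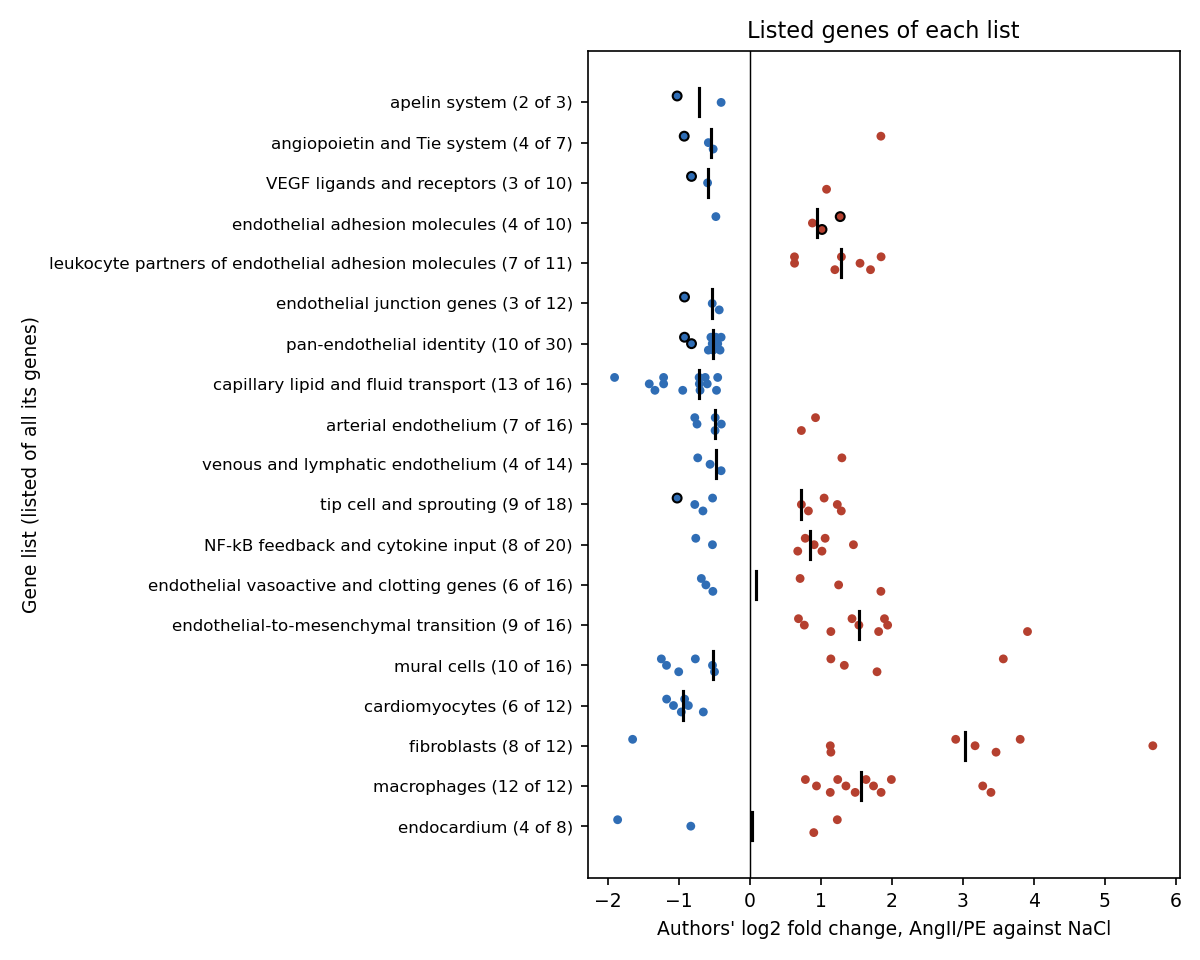
Authors' log2 fold change (x axis) of every listed gene of each gene list (y axis, with the number listed of all genes in the list); blue points are lower and red points higher in treated myocardium, black rings mark the 6 genes, and black bars are medians. The points of the pan-endothelial, capillary and junction lists lie left of 0, and those of the leukocyte partner, macrophage and mesenchymal transition lists lie right of 0.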

How the data were processed

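RNA of whole left ventricular myocardium was purified with a column kit, per the labels' protocols, and sequenced. The tools named in the submitters' processing notes are STAR 2.4.2a, cutadapt, featureCounts, Subread and DESeq2, with build mm10; for their order and settings, the annotation, the model and the listing rule, the sources used here give nothing. The values are log2 fold changes and p-values adjusted for the false discovery rate, per the file headers, from the authors' deposited table of treated against control libraries. What the log2 values were averaged over is not stated, the number of genes tested is unknown, and a gene without a value is not shown to be unchanged. If one scaling error affected all libraries of a treatment, all fold changes would shift together. Recentring on the midpoint of the 2 inner edges (0.11) was tried. That midpoint reflects how the table is cut, so it cannot measure such an error. Whether reads were counted by strand is not stated either.

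No model was fitted, because no column of values per library was used (0). Members of 19 gene lists (229 genes, 116 of them listed, 27 in more than 1 list) were counted in each direction and set beside all listed genes. All listed genes had an adjusted p under 0.05, a threshold that the sources used here do not state. The 6 genes and the lists were chosen with earlier results of these data known, and so are described and not tested. Named are the 6 genes, their ligand, receptor, junction and adhesion partners, up to 4 genes of largest absolute log2 fold change per other list, and members that go against their list's majority. The angiopoietin-like genes, Cldn15 and further list members such as Sox7, Aqp1, Cd36, Gpihbp1, Fabp4, Tnfrsf1a, Snai1, Csf1r, Myh6, Abcc9 and Rgs5 were named after their values were seen. One further gene is not reported here. Positions are from GENCODE M21 and promoters from RefSeq, both on GRCm38, the assembly of mm10. The motif search was tested on made-up sequences. Python 3.11.15 and pandas 2.3.3 were used.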

Additional observations from a re-analysis of the deposited data

How the results depend on the processing

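The thresholds tried cannot change a direction, and the recentring of 0.11 is small beside the smallest size of the 6 genes (0.82), so kept directions say nothing of stability. At an adjusted p threshold of 0.001 Sele (0.0070) was lost, leaving 1 higher gene, and at a size of at least 1 on the log2 scale Angpt1 (-0.92), Cldn5 (-0.92) and Kdr (-0.82) were lost, leaving 1 lower gene. Over all lists, 59 listed genes were higher and 57 lower; the lower count was 12 at that size threshold, where 81.5% of all genes left were higher, and 32 at the size of the inner edge of rises (0.63), an alternative chosen after seeing the data. A size of at least 1 also turned the majority of 4 lists, the angiopoietin and Tie genes, the VEGF genes and the venous and lymphatic genes to 1 higher and 0 lower each, and the mural cell genes to 4 higher and 2 lower; it left 0 listed genes of the pan-endothelial (10 lower before), junction (3 lower) and arterial (2 higher and 5 lower) lists. No list turned under an adjusted p threshold of 0.01 or 0.001, recentring by 0.11, dropping 538 predicted models, RIKEN clones and pseudogenes, or the edge size of 0.63, although 5 of the 17 lists that lean one way had no majority left at the edge size. No paired analysis was possible because the results come from a table of called genes without values per library, and for the same reason no replicate could be left out. Depth, and what it limits, is unknown.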
